A study of Mus musculus with 27 samples.

Results

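The comparison of OIR mice with control mice at p17, the age of maximal retinal neovascularization (RNV) in the mouse model of oxygen-induced retinopathy (OIR), is described here gene by gene and by cell type. It takes the 8 OIR p17 mice S1 to S8 and the 6 control mice nOIR p17 S1 to S6, which are 14 of the 27 mice sequenced. A gene entered if it averaged 10 normalized reads or more over these 14 mice, and 18967 of 40129 listed genes (47.3%) did. At the edge of this rule, Gm11940 just entered with a mean of 10.0014 and Gm49215 was just left out with 9.9985. Normalized reads are read counts divided by 1 factor per mouse, and every fold change below is a difference of means of log2(normalized reads + 1), OIR minus nOIR. A gene was called when its p-value, adjusted by the Benjamini-Hochberg method over all 18967 genes, was under 0.05 in limma.

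All mice were WT C57BL/6 pups (C57BL/6J in the study's methods), and the tissue was whole retina. OIR pups were kept in hyperoxia and returned to room air before the retina was taken at p17. Control pups (nOIR) of the same age stayed in room air throughout. No group carried a transgene or received a drug. Each library held the retina of the fellow eye of a mouse whose other eye was stained, or both retinas pooled, after perfusion of the animal with saline. By the study's methods the mice of a group came from fewer litters than mice. The labels give neither the litter of a mouse nor which libraries pooled both eyes, so the fits treat littermates as independent, and litter and group cannot be told apart. The 13 mice of the p14 groups enter only where the effect at p17 is set against that at p14.

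High oxygen closes the growing capillaries of the pup's central retina. After return to room air the underperfused neurons and glia are short of oxygen, hypoxia-inducible factors (HIF) accumulate and switch on VEGF and glycolytic genes, and endothelial tip cells lead new vessels, some of which grow out of the retina as tufts. Bipolar, horizontal and amacrine cells of the inner retina and the ganglion cells depend on these retinal vessels, whereas the photoreceptors draw mainly on the choroid behind them. Müller glia span the retina, remove glutamate and potassium, and turn on intermediate filament genes when the tissue is stressed.

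Recovered whole reads per mouse ranged from 17029536 in OIR mouse S1 to 32504170, with a median of 30374879, and the 6 nOIR mice lay between 25650603 and 31168743. The number of genes detected per mouse was 25529 to 27719. The first principal component held 32.9% of the variance and separated all OIR from all nOIR mice. Some OIR libraries stood apart from the rest. In mice S6, S7 and S8, 308 genes (1.62% of those tested) lay below 0.5 times the lowest of the other 11 mice, and 0 genes lay above their highest by the inverse factor. The median ratio of these genes to the median of the other 11 mice was 0.25 in S6, 0.19 in S7 and 0.19 in S8, against 0.90 to 1.05 in each of the others. The genes were chosen for this drop, so that a low ratio in S6 to S8 is built in. Sppl3, for example, had 305.9 to 334.4 normalized reads in S6 to S8, 2346 to 2917 in S1 to S5 and 2701 to 3106 in nOIR mice. The transcripts of the set had a higher median GC content than those of the other tested genes (53.8% over 305 genes against 49.0% over 18220) and were longer (3862 against 3038 bases). At p14 the same genes were low in part of both groups, with a median ratio of 0.53 in nOIR S5, 0.33 in nOIR S6, 0.59 in OIR S1, 0.57 in OIR S3 and 0.62 in OIR S5. Of the 308 genes 25 were called lower and 0 higher at p17 with all mice, against 28 lower and 5 higher without S6 to S8.

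**Figure D1:**
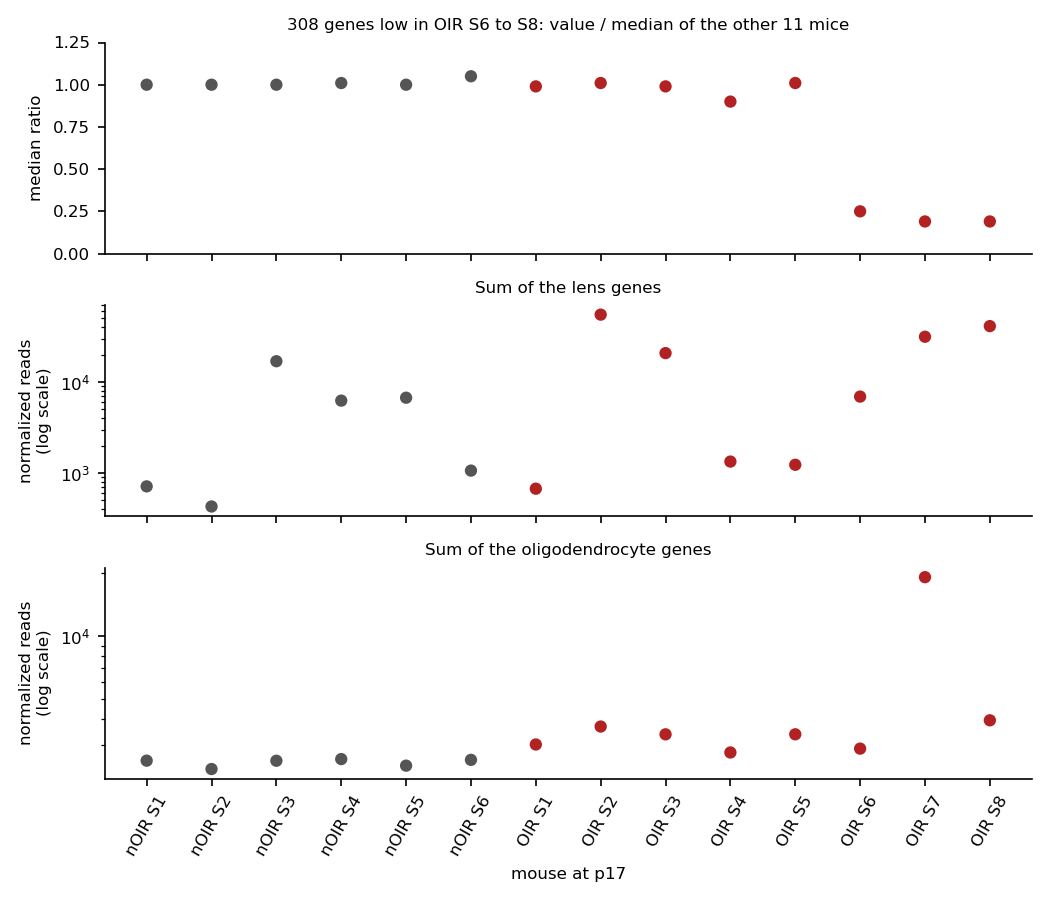
Each point is 1 mouse at p17, nOIR in grey and OIR in red. The 308 genes were chosen for being low in OIR S6 to S8. The upper panel gives the median ratio of 308 genes to the other 11 mice, which is 0.25 or less in OIR S6 to S8 and 0.90 or more elsewhere, and the lower panels give the summed normalized reads of the lens and oligodendrocyte genes on log axes, where OIR S2 and OIR S7 are highest.

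Tissue from outside the retina also differed between mice. The sum of the 17 tested lens genes ran from 427 to 16928 normalized reads in nOIR mice and from 670.5 in OIR S1 to 55089 in OIR S2, with 41188 in S8 and 31458 in S7. The sum of the oligodendrocyte genes was 19187 in OIR S7 against 2764 to 3944 in the other OIR mice and 2302 to 2569 in nOIR mice. Main results are also given without S6 to S8, and counts without S2, S7 and S8 stand with the lens genes. The label of retina held, since the rod arrestin Sag had 239552 to 317168 normalized reads in nOIR mice and 167236 to 260139 in OIR mice.

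At p17, 3243 genes (17.1%) were called in either direction. Of the 18967 genes, 1925 (10.1%) were higher in OIR mice and 1318 (6.95%) were lower. The higher genes moved further than the lower genes. The median log2 fold change was 1.10 among the genes called higher, -0.53 among those called lower and -0.04 over all genes tested. Among the lower genes 1148 (6.05% of those tested) fell by up to 1 on the log2 scale, 146 (0.77%) by over 1 to 2, and 24 (0.127%) by over 2, the fold at which the study calls a differentially expressed gene (DEG). Among the higher genes the same steps held 854 (4.5%), 640 (3.37%) and 431 (2.27%). Thus 87.1% of the falls were of at most 1 and 77.6% of the rises of at most 2. With or without a call, all OIR mice lay below all nOIR mice for 533 genes (2.81%) and above them for 1033 (5.45%). Of these, 519 were called lower (2.74%) and 1032 called higher (5.44%).

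The genes that fell were expressed at a higher level than those that rose, with a median of the 14-mouse mean of 987.3 normalized reads against 247.4, and 441.7 over all genes tested. Of the 6432 genes whose mean reached 1000, 656 were lower and 392 were higher, but only 19 of the former and 100 of the latter moved by over 1. Without OIR mice S6 to S8 the counts were 1232 lower and 1692 higher, and 1012 genes were called lower in both fits. Of the 146 genes moderately lower with all mice, 86 stayed in that class without S6 to S8, 36 were still called with a fall of at most 1, and 18 lost their call. Of the 640 moderately higher genes 508 stayed in their class, 47 were still called with a rise of at most 1, and 66 lost their call. Rescaling each mouse to the same total gave 2296 higher and 869 lower genes, so that 72.5% of the called genes rose instead of 59.4%.

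**Figure D2:**
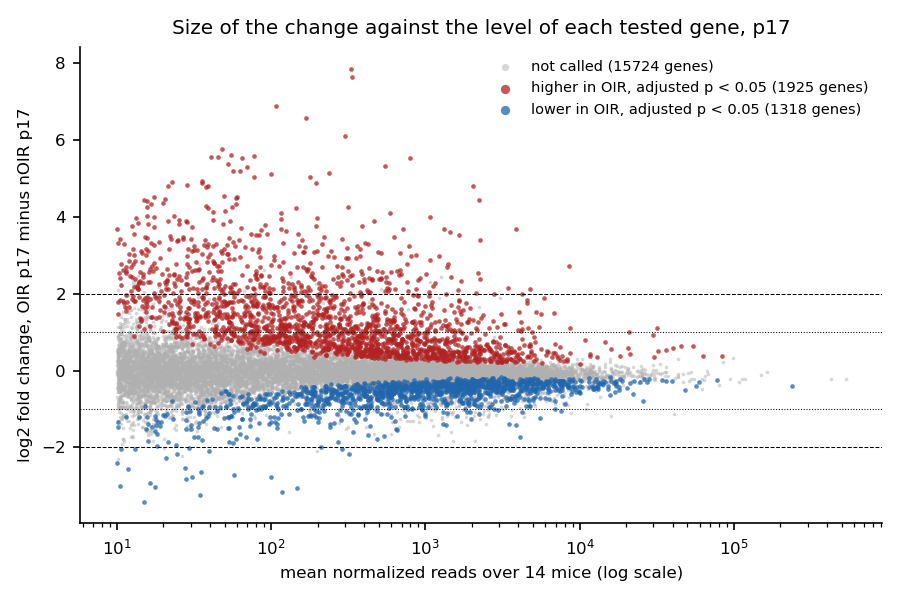
Each point is 1 of 18967 genes, with its mean normalized reads over 14 mice on a log axis and its log2 fold change on the vertical axis. Dotted lines mark a log2 fold change of 1 and dashed lines a change of 2 in either direction. Genes called lower (blue) lie mostly above -1 and extend to high levels, and genes called higher (red) extend above 4 at low levels.

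The 10 falls with the smallest adjusted p among genes whose groups did not overlap come first. Gsg1l2, which is related to the auxiliary subunits of AMPA receptors, had a lowest value of 826.6, a median of 901.0 and a highest of 934.3 normalized reads in nOIR mice, against 313.8, 395.4 and 433.7 in OIR mice. Every OIR mouse lay below every nOIR mouse. It fell by 1.20 ± 0.09 (SE) on the log2 scale (adjusted p = 6.38e-08, limma). Kcnip2, an accessory subunit of A-type potassium channels, ran from 1286 to 1640 in nOIR mice and from 581.6 to 809.2 in OIR mice. Again every OIR mouse was below the nOIR range, with OIR S3 the highest of them. The fall of Kcnip2 was 1.13 ± 0.09 (adjusted p = 7.02e-08).

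Gabra4, the α4 subunit of the GABA-A receptor, had 504.1 to 790.1 normalized reads in nOIR mice and 182.7 to 297.3 in OIR mice, again without overlap. Its log2 fold change was -1.68 ± 0.13 (adjusted p = 1.25e-07). Cacna2d3, an auxiliary α2δ subunit of voltage-gated calcium channels, ran from 3393 to 3731 in nOIR mice and from 1506 to 2129 in OIR mice, and fell by 0.96 ± 0.08 (adjusted p = 2.44e-07). Tmem196, a membrane protein gene, fell by 1.59 ± 0.14, from 409.1 to 623.6 normalized reads in nOIR mice to 126.2 to 220.9 in OIR mice. For these genes too the groups did not overlap.

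Spc25, which encodes a kinetochore subunit, had 6125 to 7763 normalized reads in nOIR mice and 1427 to 2977 in OIR mice, and fell by 1.74 ± 0.14 (adjusted p = 1.33e-07), while all 21 genes of the mitosis list, which does not hold it, rose. The remaining genes with the smallest adjusted p and separate groups were Rab3c, a small GTPase of secretory vesicles (-0.75 ± 0.07), Emb, a membrane glycoprotein related to basigin (-0.79 ± 0.07), P2rx2 (-2.77 ± 0.26) and Kcnj9, a subunit of G-protein-gated potassium channels (-0.84 ± 0.08). None of these 10 genes lost its call under any of the 28 alternatives run on each gene.

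**Figure D3:**
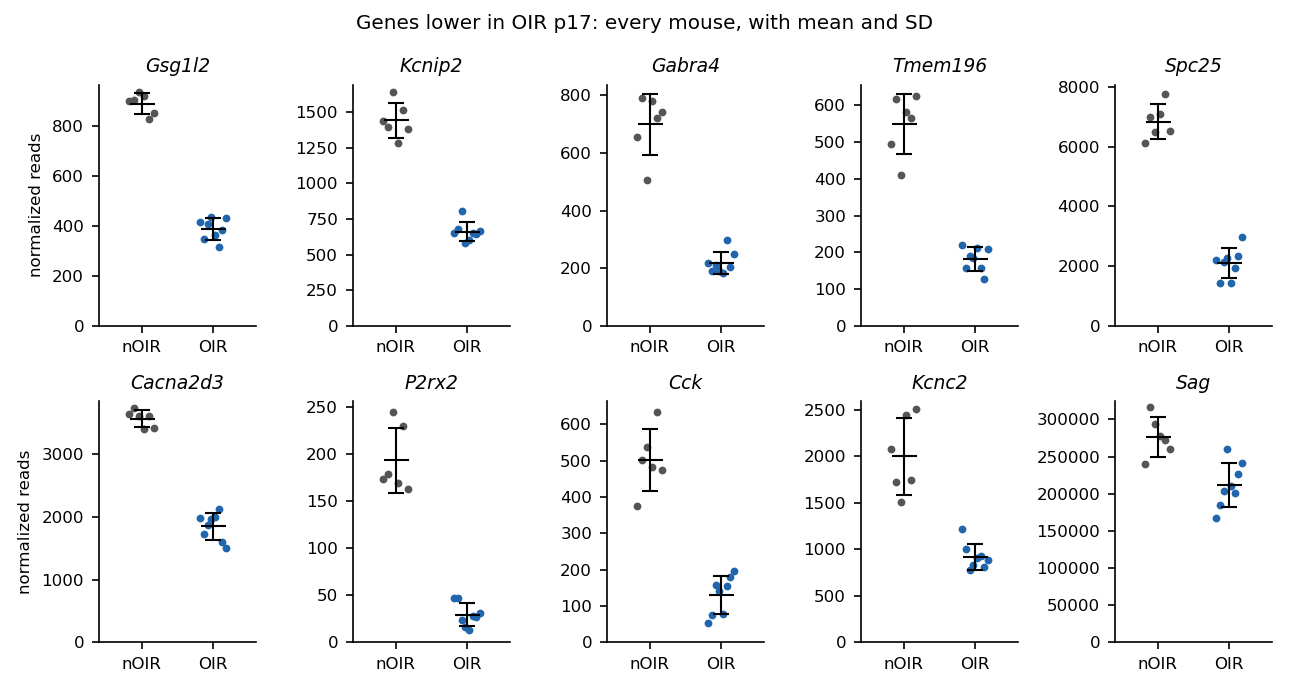
Normalized reads (linear axes from 0) of 10 genes called lower in OIR p17, with each point 1 mouse (6 nOIR in grey, 8 OIR in blue) and bars for mean and SD. The groups are separate for 9 of the genes; for Sag the highest OIR mouse, at 260139, lies above the lowest nOIR mouse, at 239552.

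Among the 10 genes with a moderate fall and the smallest adjusted p, the other 5 were Cdcp3 (-1.51 ± 0.15), Tafa4, a secreted neuronal chemokine-like protein (-1.15 ± 0.12), Olfm4 (-1.86 ± 0.20), Kcnc2, a fast-spiking potassium channel (-1.11 ± 0.13), and Baiap3, which acts in dense-core vesicle release (-1.14 ± 0.13). Kcnc2 had 1504 to 2506 normalized reads in nOIR mice and 774.6 to 1223 in OIR mice. The called falls with the highest levels were all under 1. Among the 10 highest were Sag (-0.39), Pde6b (-0.24), Snap25 (-0.40), mt-Cytb (-0.50), the taurine transporter Slc6a6 (-0.26), Syt1 (-0.24), Nsf, which recycles SNARE complexes (-0.21), and Map4 (-0.31). Of these, Syt1 was not called without S6 to S8 (adjusted p = 0.118), and Slc6a6, Syt1 and Nsf were not called with all mice brought to the same total.

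The neuronal lists held 228 distinct tested genes, of which 95 (41.7%) were lower and 7 (3.07%) were higher. Over all genes tested 6.95% were lower and 10.1% higher, the shares to set beside each list below. The median log2 fold change was -0.32, beside -0.04 over all genes. All lists were chosen with earlier results of these data known, so part of their shares may be built in. Without OIR S6 to S8, 92 were lower, with the same total in all mice 73, and at an adjusted p under 0.01 67. In whole retina, fewer cells of a type and less RNA per cell cannot be told apart. Genes of the photoreceptors, which detect light, come first, with list medians of -0.03 for cones and -0.06 for genes that rods and cones share. These were -0.18 and -0.10 without S6 to S8, and 0.03 and 0.01 with all mice brought to the same total. Of 24 rod genes 4 fell and 0 rose, with a median of -0.22, and without S6 to S8 7 fell, with a median of -0.27. With a replicate block, which groups mice of the same number, 11 were lower. At p17 only OIR mice have the numbers 7 and 8, so S7 and S8 add nothing to the group effect in that fit. With no filter on low genes 1 was lower, and after quantile normalization the median was -0.08. The rod transducin Gnat1 was at -0.22 ± 0.13 (adjusted p = 0.279) and the rod transcription factor Nrl at -0.05 ± 0.14 (0.858). The 4 called were Sag (-0.39), Pde6a (-0.28) and Pde6b (-0.24), subunits of the rod phosphodiesterase, and Guca1a (-0.79), which activates guanylate cyclase as calcium drops. Sag and Pde6a were not called after quantile normalization, and Pde6a was not called with the same total in all mice. Guca1a had 824.6 to 1131 normalized reads in nOIR mice and 373.3 to 732.6 in OIR mice, without overlap.

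Of 13 cone genes only Gnb3, the cone transducin β subunit that ON bipolar cells also express, was called, and it rose by 0.44 ± 0.09 (adjusted p = 0.00129). The cone opsins Opn1sw (0.01) and Opn1mw (-0.12) and the cone arrestin Arr3 (-0.04) were not called. Of the 12 genes shared by rods and cones 0 were called in limma, edgeR or DESeq2, and 0 had an unadjusted p under 0.05 in limma, with Crx at 0.02, Rbp3 at -0.05 and Abca4 at -0.26.

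Bipolar cells relay photoreceptor signals to the inner retina, and 15 of their 22 genes fell, with a median of -0.44, while 1 rose. The metabotropic receptor Grm6 of ON bipolar cells had 3857 to 4856 normalized reads in nOIR mice and 2558 to 4105 in OIR mice. The groups overlapped slightly, and Grm6 fell by 0.45 ± 0.10 (adjusted p = 0.00488). Its channel Trpm1 fell by 0.48 ± 0.12, to 7614 to 12569 in OIR mice from 13687 to 16069 in nOIR mice, without overlap. Trpm1 was not called after quantile normalization. Prkca, the rod bipolar protein kinase C, was at -0.46 ± 0.15 and close to the threshold (adjusted p = 0.0409, and 0.065 without S6 to S8). Tacr3, a tachykinin receptor of OFF bipolar cells, fell most in this list, by 1.00 ± 0.12, with 917.0 to 1324 in nOIR mice and 455.8 to 740.5 in OIR mice. Also lower and without overlap were Grik1 (-0.77), a kainate receptor of OFF bipolar cells, Scgn (-0.75), a calcium sensor, Cabp5 (-0.69) and Rgs7 (-0.64), which speeds the Grm6 cascade. Its relative Rgs11 rose by 0.45 ± 0.11 (adjusted p = 0.00985). Nyx, a scaffold of the Grm6 synapse, fell by 0.91 ± 0.23, and by 0.66 without S6 to S8, of which S7 and S8 held the lowest values.

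Horizontal cells carry lateral inhibition, and 3 of their 7 genes fell. These were Calb1, the calcium buffer calbindin (-0.76 ± 0.09), Prox1 (-0.49) and Gja10, a horizontal cell connexin (-0.60 ± 0.18, adjusted p = 0.0322, and 0.0515 without S6 to S8). Prox1 too was not called without S6 to S8 (adjusted p = 0.0639), which left 1 of the 7 lower and 1 higher. With the same total in all mice 1 was lower. The transcription factors Lhx1 (0.00), Onecut1 (0.19) and Onecut2 (-0.21), the defining markers here, were not called. Calb1 had 6177 to 6751 normalized reads in nOIR mice and 3211 to 5120 in OIR mice, and other retinal neurons express it too.

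Of 20 amacrine genes 12 fell and 0 rose, with a median of -0.35. Without S6 to S8 10 were lower, and with the same total in all mice 8 were lower and 1 higher. Gad1, which makes GABA, had 9908 to 11646 normalized reads in nOIR mice and 6611 to 7603 in OIR mice, a fall of 0.62 ± 0.06 (adjusted p = 1.61e-06) without overlap. Slc6a9, the glycine transporter, fell by 0.79 ± 0.09, to 2040 to 2858 from 3392 to 4379. The glutamate transporter Slc17a8 of a glycinergic amacrine subtype fell by 0.79 ± 0.17, and the cholinergic genes Chat (-0.30), Slc18a3 (-0.42) and Slc5a7 (-0.41) were lower as well. Of these, Chat and Slc5a7 were not called without S6 to S8 (adjusted p = 0.0705 and 0.114). Th, the dopamine synthesis enzyme, was at -0.60 ± 0.19 (adjusted p = 0.0319, and 0.0847 without S6 to S8). Gad2 (-0.18), Tfap2a (-0.13) and Tfap2b (-0.25) were not called, and without S6 to S8 Tfap2b was called at -0.37 (adjusted p = 0.0227).

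Of 16 retinal ganglion cell genes 8 fell and 0 rose, with a median of -0.51. Rbpms, a marker of all ganglion cells, was at -0.04 ± 0.09 (adjusted p = 0.828), and the transcription factor Pou4f1 at -0.30 ± 0.27 (0.522). Pou4f2, a related factor, fell by 0.67 ± 0.16, with 138.3 to 228.0 normalized reads in nOIR mice and 86.9 to 148.0 in OIR mice, where the ranges just overlapped, and was not called without S2, S7 and S8 (adjusted p = 0.0531). The nicotinic receptor subunits Chrnb3 (-0.88) and Chrna6 (-0.73) and the vesicular glutamate transporter Slc17a6 (-0.57) fell without overlap. Neurofilament genes fell too, with Nefl at -0.50 and Nefm at -0.46. Nefh, the heavy neurofilament, had 5370 to 6446 in nOIR mice, 2771 to 4367 in OIR S1 to S5 and 856.9 to 1173 in OIR S6 to S8. Its log2 fold change was -1.41 ± 0.33 with all mice and -0.77 ± 0.10 without S6 to S8, and it was called in both (adjusted p = 0.00519 and 6.06e-05). Tbr1 was not called in either fit, with -1.15 and -0.32.

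Neuropeptide genes moved in either direction. Cck, which encodes cholecystokinin, had 375.8 to 635.5 normalized reads in nOIR mice, with a median of 492.6, and 54.4 to 197.7 in OIR mice, with a median of 149.1. Every OIR mouse lay below every nOIR mouse, and Cck fell by 2.05 ± 0.26 (adjusted p = 2.60e-05), or by 2.38 without S6 to S8. Adcyap1, which encodes PACAP, was at -0.89 ± 0.27 (adjusted p = 0.0319, and 0.0644 without S6 to S8). Npy (0.76 ± 0.16), Tac1 (0.82) and Pnoc (1.42 ± 0.32), which encodes the nociceptin precursor, rose. Npy had 855.3 to 1204 normalized reads in nOIR mice and 1145 to 2543 in OIR mice, so that the ranges overlapped.

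Of 30 genes of synaptic vesicles and the active zone 15 fell and 0 rose, with a median of -0.27, and 9 were lower with the same total in all mice. Cplx1, a clamp of vesicle fusion, fell by 0.78 ± 0.10, and its amacrine and rod bipolar relative Cplx3 by 0.55 ± 0.10, whereas Cplx4 was at 0.04 and was not called. Snap25, a SNARE protein of the plasma membrane, had 63608 to 67566 normalized reads in nOIR mice and 43133 to 62716 in OIR mice, a fall of 0.40 ± 0.08 (adjusted p = 0.00151) without overlap. Syn1, which tethers vesicles, fell by 0.42 ± 0.08, and Sv2a by 0.49. Syn2 had 299.1 to 538.4 normalized reads in S6 to S8, against 1356 to 1792 in the other OIR mice and 2038 to 2364 in nOIR mice. It was called with a log2 fold change of -1.18 ± 0.37 with all mice and of -0.45 ± 0.09 without them (adjusted p = 0.0372 and 0.00222). It was called in 14 of 28 alternatives, and not in edgeR (adjusted p = 0.0846) or DESeq2 (0.0857). Syp (-0.17), Vamp2 (-0.06) and the ribbon protein gene Ctbp2 (-0.04) were not called.

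The receptor list held 41 genes of glutamate, GABA and glycine receptors, of which 26 fell and 0 rose, with a median of -0.51. Without S6 to S8 24 were lower and 2 higher, the kainate receptor genes Grik3 (0.69, adjusted p = 0.0303) and Grik4 (0.62, adjusted p = 0.0227). Inhibitory receptor subunits were among those that fell. Gabrb1 fell by 1.12 ± 0.17, Glra2 by 0.86 ± 0.09, Glra4 by 0.91 and the ρ subunit genes Gabrr1, Gabrr2 and Gabrr3 by 0.46, 0.57 and 0.70. Of the AMPA receptor genes, Gria3 (-0.53) and Gria4 (-0.40) fell, and Gria1 (0.14) and Gria2 (-0.25) were not called. Grin2d (-0.88) and Grm4 (-0.66) were not called either, and came to -0.09 and -0.03 without S6 to S8.

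Of 24 voltage-gated channel genes 10 fell and 0 rose. Their median was -0.49 with all mice and -0.19 without S6 to S8, the largest such shift among the neuronal lists. Called in both fits were the sodium channels Scn1a (-0.81 ± 0.11) and Scn2a (-0.57 ± 0.12) and the potassium channels Kcnc2 and Kcnd2 (-1.07 ± 0.14). Kcnc1 was at -0.86 with all mice and -0.51 without S6 to S8, and was called in both fits. Hcn2, a pacemaker channel, was at -1.65 without a call (adjusted p = 0.159). It had 24.2 to 41.3 normalized reads in S6 to S8, 444.9 to 724.7 in S1 to S5 and 531.7 to 692.1 in nOIR mice, and was at -0.13 without the 3 mice. Scn8a (-0.16) was not called.

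P2X receptors are cation channels opened by extracellular ATP, and the 7 tested genes split. P2rx2 had 162.5 to 244.9 normalized reads in nOIR mice and 13.6 to 47.2 in OIR mice, with medians of 176.5 and 27.3. No OIR mouse reached the lowest nOIR mouse, and P2rx2 fell by 2.77 ± 0.26 (adjusted p = 7.70e-07). P2rx7, which microglia and other cells express, rose by 1.47 ± 0.32, from 6.37 to 34.3 in nOIR mice to 46.7 to 105.4 in OIR mice. P2rx1 was at 2.43 ± 0.69 (adjusted p = 0.0213, and 0.117 without S6 to S8), with a mean under 10 normalized reads in nOIR mice and of 42.8 in OIR mice, so that it passed the filter through the OIR mice alone. P2rx3 was at -0.44 ± 0.30 (adjusted p = 0.373), and P2rx4, P2rx5 and P2rx6 were not called. Without S6 to S8 1 of the 7 was higher and 2 were lower, with P2rx5 at -1.02 (adjusted p = 0.00476).

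**Figure D4:**
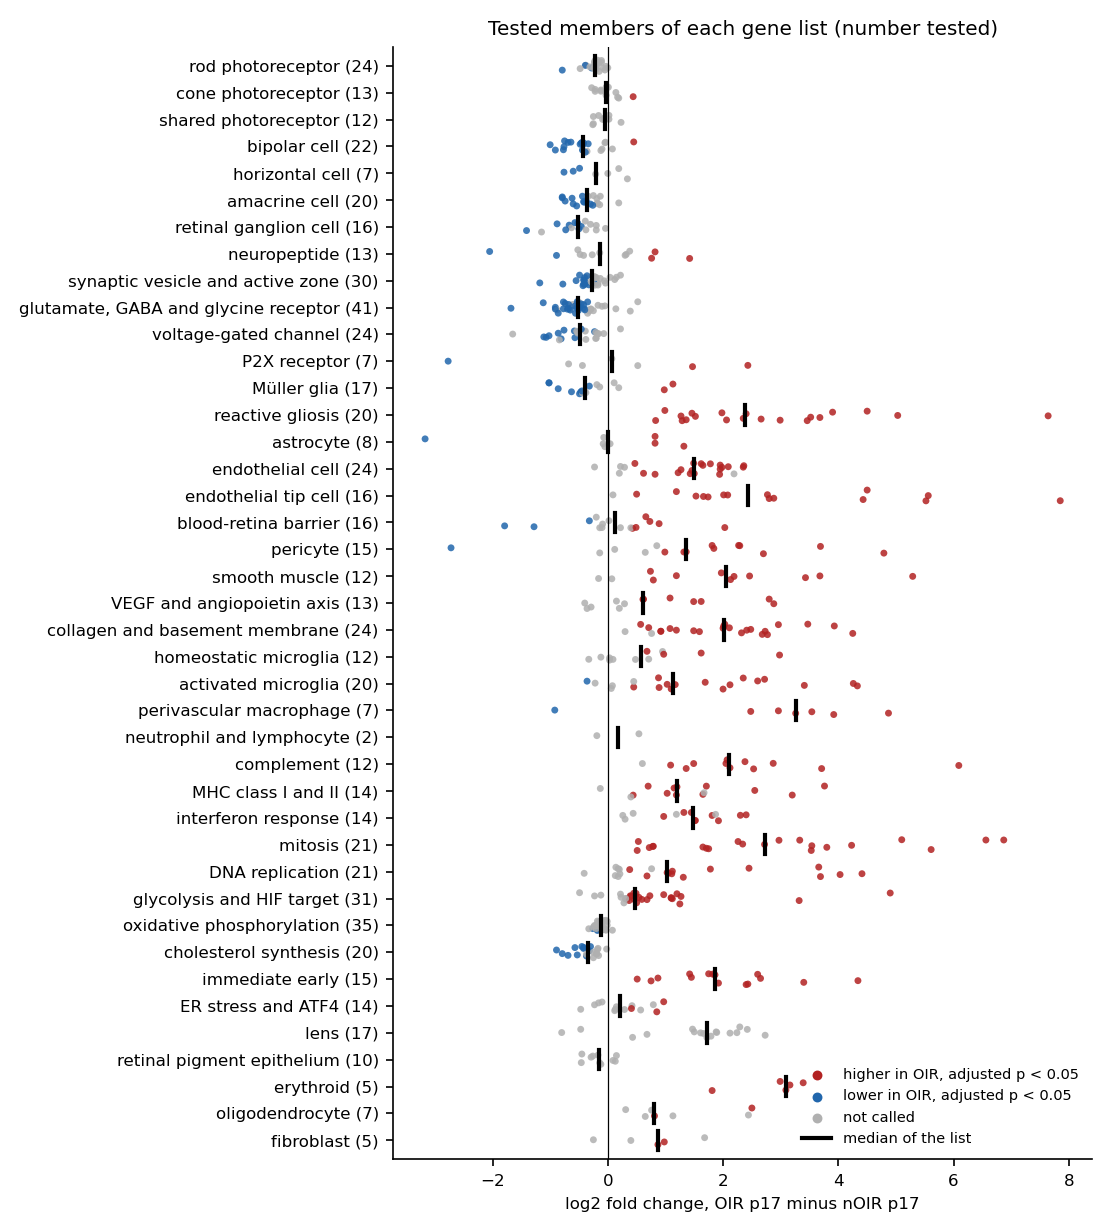
Log2 fold change of every tested member of the 41 gene lists, 1 point a gene, red where called higher, blue where called lower and grey otherwise, with a bar at the list's median. Most neuronal lists have their median below 0, and the gliosis, tip cell, mitosis and complement lists lie to the right with members above 4.

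Müller glia genes moved in opposite directions. Of 17 genes 8 fell and 2 rose. The potassium channel Kcnj10 had 293.6 to 462.0 normalized reads in nOIR mice and 138.1 to 296.3 in OIR mice, a fall of 1.02 ± 0.17 (adjusted p = 0.000454) with a single OIR mouse inside the nOIR range. The water channel Aqp4 fell by 0.86 ± 0.09, to 1703 to 2244 from 3218 to 4107, and the retinoid carrier Rlbp1 by 0.63 ± 0.14. Glutamine synthetase, Glul, was at -0.47 ± 0.15 (adjusted p = 0.0403), called in 16 of 28 alternatives and not in edgeR (adjusted p = 0.0526), and the lipid transporter Abca8a at -1.02 ± 0.16. The transcription factor Sox9 rose by 0.98 ± 0.12 and Crym by 1.13 ± 0.16, while the glutamate transporter Slc1a3 was at 0.19 ± 0.08 and was not called (adjusted p = 0.144).

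Of the 666 distinct members tested over all lists, 38 had a mean under 10 in nOIR mice and passed the filter through the OIR mice alone, and the counts of the lists include them. All 20 genes of the reactive gliosis list rose, 3 of them such genes, with a median of 2.38, and 19 were higher without S6 to S8 and 18 without S2, S7 and S8. Gfap, the intermediate filament gene of reactive glia, had 339.0 to 799.7 normalized reads in nOIR mice and 2164 to 8794 in OIR mice, and rose by 3.68 ± 0.26 (adjusted p = 4.27e-08). Its partner Vim rose by 1.46 ± 0.12. Edn2, which encodes endothelin 2, had 0 to 7.42 in nOIR mice and 138.4 to 944.3 in OIR mice, a difference of 7.64 ± 0.51. Serpina3n (3.90), Timp1 (5.03) and Lcn2 (1.36) rose as well. Among 8 astrocyte genes, Gja1 (1.32) and Aldh1l1 (0.82) rose, S100b was at -0.05 without a call, and Etnppl fell by 3.17 ± 0.51, from 151.9 to 318.5 normalized reads to 3.30 to 92.4.

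The vessel lists held 112 distinct tested genes, of which 83 (74.1%) were higher and 4 (3.57%) lower, beside 10.1% and 6.95% over all genes tested. Their median was 1.49, and 80 were higher without S6 to S8. These lists too were chosen with earlier results of these data known, so part of this share may be built in. Of 24 endothelial genes 19 rose and 0 fell, most of them moderately, and the median was 1.50. Tie1, an endothelial receptor kinase, had 351.6 to 444.4 normalized reads in nOIR mice and 1064 to 1266 in OIR mice, and rose by 1.62 ± 0.08 (adjusted p = 5.70e-10). The junction genes Pecam1 (1.27 ± 0.11) and Cdh5 (1.43 ± 0.16) rose without overlap too. The receptor genes Kdr (0.20 ± 0.14), Tek (0.29 ± 0.20) and Ptprb (-0.23 ± 0.16) were not called. Other moderate rises with the smallest adjusted p were Plat, a plasminogen activator (1.83), the pericyte gene Rgs5 (1.84), the endothelial receptor gene Adgrl4 (1.58), Lmna (1.62), the matrix gene Vwa1 (1.70), Ctsc (1.54), H2-K1 (1.71), Vegfa (1.49) and Tpm4 (1.98).

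Of 16 tip cell genes 15 rose, with a median of 2.42. Of the 16, 3 had a mean under 10 in nOIR mice, Esm1 among them, and passed the filter through the OIR mice alone. Esm1, which encodes a secreted proteoglycan of sprouting endothelium, had 0 to 6.62 normalized reads in nOIR mice and 277.9 to 752.5 in OIR mice, a difference of 7.85 ± 0.47. Adm, which encodes adrenomedullin, had 16.5 to 44.2 against 957.7 to 1932 and rose by 5.52 ± 0.21 (adjusted p = 3.39e-11), a smallest adjusted p that it shared with Ndufa4l2, Bgn and Mcam. Apln (4.43 ± 0.21) and Angpt2 (2.88 ± 0.17) rose without overlap. In the VEGF and angiopoietin axis 7 of 13 genes rose. Vegfa had 3203 to 3490 normalized reads in nOIR mice and 6540 to 11093 in OIR mice, and rose by 1.49 ± 0.10, and Pgf rose by 2.80. Vegfb (-0.40) and Vegfc (-0.36) were not called.

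Genes of the blood-retina barrier split. The tight junction gene Cldn5 rose by 0.89 ± 0.13 and the glucose transporter gene Slc2a1 by 0.73 ± 0.10, while Ocln (0.02) and Mfsd2a (-0.20), which holds down transcytosis, were not called. Plvap, the diaphragm protein of leaky fenestrated vessels, had 104.5 to 173.5 normalized reads in nOIR mice and 401.3 to 721.0 in OIR mice, and rose by 2.03 ± 0.15 (adjusted p = 5.90e-08). The organic anion transporter Slco1a4 went the other way, with 636.3 to 902.2 in nOIR mice and 128.0 to 378.0 in OIR mice, a fall of 1.79 ± 0.22 without overlap. The thyroid hormone transporter Slco1c1 fell by 1.28 ± 0.24 and the monocarboxylate transporter Slc16a1 by 0.32, which was not called with the same total in all mice (adjusted p = 0.0524).

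Of 15 pericyte genes 10 rose and 1 fell. Ndufa4l2, a HIF target that pericytes express, had 100.9 to 156.8 normalized reads in nOIR mice and 2123 to 4726 in OIR mice, and rose by 4.79 ± 0.18. Mcam had 256.9 to 368.6 normalized reads in nOIR mice and 1811 to 2393 in OIR mice, and rose without overlap. Cd248 rose by 3.69 ± 0.17 and Pdgfrb, the receptor that recruits pericytes, by 1.32 ± 0.14. The pericyte ATPase gene Atp13a5 fell by 2.72 ± 0.55, from 75.1 to 133.8 to 0.992 to 40.9. Of 12 smooth muscle genes 10 rose (8 without S6 to S8), among them Acta2 (3.68 ± 0.25) and Actg2 (5.29 ± 0.55). Of the 12, 3 had a mean under 10 in nOIR mice. Myh11, at 1.19 ± 0.35, was called with all mice (adjusted p = 0.0272) and not without S6 to S8 (0.142). With all mice it was not called after quantile normalization or with log2 Cryaa as a covariate. Of 24 genes of collagens and the basement membrane 22 rose, with a median of 2.02. Col4a1, the main basement membrane collagen, had 1745 to 2307 normalized reads against 7585 to 16981 and rose by 2.73 ± 0.15, Col1a1 rose by 4.25 ± 0.38, and the proteoglycan gene Bgn by 3.47 ± 0.13.

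The immune lists held 81 distinct tested genes, of which 56 (69.1%) were higher and 2 (2.47%) lower, with a median of 1.36. Over all genes tested 10.1% were higher and 6.95% lower. Of 12 genes of resting microglia, the immune cells of the retina, 4 were higher. Of 20 genes of activated microglia 15 were higher (13 without S6 to S8), and 4 of the 20 had a mean under 10 in nOIR mice. Among the former Cx3cr1, the fractalkine receptor gene, rose by 1.62 ± 0.11, from 184.2 to 256.2 normalized reads to 563.2 to 800.2, and Fcrls by 2.98, whereas P2ry12 (0.03 ± 0.18) and Tmem119 (0.71 ± 0.25, adjusted p = 0.0624) were not called. Among the latter the chemokine genes Ccl3 (4.33) and Ccl4 (4.26) and the lysosomal gene Cd68 (2.60) rose. Ccl3 and Ccl4 averaged 0.504 and 0.361 normalized reads in nOIR mice, and over the alternatives their differences ran from 3.91 to 6.73 and from 3.79 to 6.69. Of the same list Spp1 (0.08) and Lpl (-0.22) were not called, and Igf1 was lower by 0.36 ± 0.09 (adjusted p = 0.0107, and 0.0717 without S6 to S8). Of 9 listed genes of perivascular macrophages 7 were tested and 6 of them rose, with a median from 2.54 in edgeR to 4.42 with a pseudocount of 0.1. They include Mrc1 (3.26), Pf4 (4.87) and Cd163 (3.54). Cd163 averaged 1.11 normalized reads in nOIR and 21.8 in OIR mice, and 4 of the 7, Cd163 and Pf4 among them, passed the filter through the OIR mice alone. Lyve1, which lymphatic and some other endothelial cells share with these macrophages, fell by 0.92 ± 0.11, from 727.7 to 934.0 to 353.1 to 535.8. Only 2 of the 14 neutrophil and lymphocyte genes passed the mean of 10 normalized reads, and 0 of them were called in limma, edgeR or DESeq2 or had an unadjusted p under 0.05.

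Complement genes rose in 11 of 12 cases (9 without S6 to S8), and 2 of the 12 had a mean under 10 in nOIR mice. C4b was at 6.09 ± 0.46 and the C1q chain genes C1qa, C1qb and C1qc at 2.05, 2.07 and 2.12. C4b has a close relative, so its reads may be shared with it. Of 14 genes of antigen presentation 11 rose, with H2-K1 at 1.71 ± 0.11, H2-D1 at 1.20 ± 0.15, B2m at 1.65 ± 0.20 and the class II gene H2-Ab1 at 3.76 ± 0.19. MHC genes resemble each other, and their split of reads is uncertain. Of 14 interferon genes 9 rose, led by Oas1a (2.40) and Ifitm3 (2.30), with Irf7 at 1.52. Without S6 to S8 6 were higher, and Oas1a and Isg15 were among those not called (adjusted p = 0.0995 and 0.0845). Without S2, S7 and S8 6 were higher too.

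Genes of dividing cells were among the largest rises. All 21 mitosis genes rose, with a median of 2.72, 5 of them with a mean under 10 in nOIR mice, and 20 were higher without S6 to S8. Mki67, a marker of cycling cells, ran from 0 to 5.57 normalized reads in nOIR mice, with a median of 0, against 106.2 to 286.2 in OIR mice, a difference of 6.87 ± 0.41 (adjusted p = 6.79e-09). Top2a rose by 6.56 ± 0.47 and Aurkb by 5.61 ± 0.47. With controls this near 0, the size of these differences depends on the added 1. Of 21 DNA replication genes 13 rose, with a median of 1.03, among them Mcm3 (2.45) and Mcm2 (0.68), while the clamp gene Pcna, which repair also uses, was at 0.14 ± 0.11 without a call. E2f8 was at 0 in every nOIR mouse and between 1.98 and 51.3 normalized reads in OIR mice.

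Of 31 genes of glycolysis and HIF targets 22 rose and 0 fell, with a median of 0.48. The count was 19 without S6 to S8, 17 without S2, S7 and S8, 19 with centring on the median and 25 with the same total in all mice. The phosphofructokinase gene Pfkp rose by 1.10 ± 0.10, from 16545 to 22383 normalized reads to 32035 to 48488, Bnip3, a mitophagy receptor, by 1.12 ± 0.14 and Pdk1, which turns pyruvate away from the mitochondria, by 0.68 ± 0.14. Ldha was higher by 0.39 ± 0.11 (adjusted p = 0.0212, and 0.0943 without S6 to S8). Car9, a carbonic anhydrase that hypoxia induces, was listed at 0 in all but 1 nOIR mouse and ran from 27.8 to 59.9 in OIR mice. Ankrd37 rose by 0.45, and was not called in a fit of all 4 groups.

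Since many of these genes rose, their promoters were searched for ACGTG, the core of the hypoxia response element, in the 250 bases before the gene start, on both strands. CACGTG reads as this core on either strand and counts as 2 matches. The promoters were taken from RefSeq (GRCm38.p6), and those of part of the genome and those of incomplete length were left out. A promoter was searched for 21 of the 22 that rose and for all 9 that were not called. The core was present in 13 of the 21 (61.9%) and in 6 of the 9 (66.7%). It was in 22.5% of the promoters of all genes called higher, 25.4% of those called lower and 24% of those tested. Of all 32851 promoters searched, 16.6% held it. The list was chosen for HIF targets, so a high share in it is in part built in. A match is a description of letters and not a bound site. Shown are 3 promoters of genes that rose, 5′ to 3′ on the strand of the gene, with matches in capitals. They are Bnip3 (chr7:138909507-138909756, minus strand), where CACGTG matches on both strands, Ankrd37 (chr8:45999851-46000100, minus strand), with 2 cores, and Car9 (chr4:43506776-43507025, plus strand), with a core on the opposite strand and, upstream of it, a match to the AP-1 motif TGANTCA.
Bnip3: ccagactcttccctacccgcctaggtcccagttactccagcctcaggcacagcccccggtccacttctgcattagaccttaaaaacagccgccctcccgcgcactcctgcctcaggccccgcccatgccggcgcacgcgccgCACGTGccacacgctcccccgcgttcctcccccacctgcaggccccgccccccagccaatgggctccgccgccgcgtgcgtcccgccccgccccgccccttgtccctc
Ankrd37: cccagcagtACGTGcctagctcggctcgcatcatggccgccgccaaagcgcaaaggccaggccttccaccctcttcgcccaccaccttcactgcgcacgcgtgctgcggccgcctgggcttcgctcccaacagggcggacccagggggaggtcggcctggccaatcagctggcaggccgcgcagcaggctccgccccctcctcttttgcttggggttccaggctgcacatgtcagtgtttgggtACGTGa
Car9: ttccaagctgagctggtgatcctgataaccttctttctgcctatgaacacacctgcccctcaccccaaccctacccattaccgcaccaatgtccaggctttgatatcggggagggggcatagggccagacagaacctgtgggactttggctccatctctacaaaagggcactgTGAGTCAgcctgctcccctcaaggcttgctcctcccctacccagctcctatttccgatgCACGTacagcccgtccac

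The nuclear genes of oxidative phosphorylation had a median of -0.12, with 34 of 35 below 0 and 2 called lower (Ndufs1, -0.26, and Sdha, -0.18). A share of 2 in 35 is below the 6.95% called lower among all genes. The median was -0.25 without S6 to S8, again with 2 called lower, and -0.22 with a replicate block and 5 called lower, but -0.08 in edgeR, -0.05 with the same total in all mice and -0.04 after quantile normalization. Sdha was called in 14 of 28 alternatives, and edgeR, the same total and quantile normalization each called 1 of the 35. Of the 8 tested protein-coding genes of the mitochondrial genome 4 were lower, with a median of -0.47 and a range from -0.95 to -0.17. mt-Nd1 had 30400 to 37259 normalized reads in nOIR mice and 12443 to 26831 in OIR mice, a fall of 0.78 ± 0.15 without overlap. Of 20 genes of cholesterol synthesis 11 fell and 0 rose, with a median of -0.35. Hmgcs1, which acts early in the pathway, fell by 0.42 ± 0.10 and the sterol sensor gene Insig1 by 0.69.

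All 15 tested immediate early genes, which neurons, glia and vessel cells switch on within minutes of a stimulus, rose, with a median of 1.86. Of the 15, 3 had a mean under 10 in nOIR mice. Fos had 591.1 to 838.8 normalized reads in nOIR mice and 2201 to 3967 in OIR mice, a rise of 1.75 ± 0.13, and Egr2 (4.34 ± 0.61) and Fosb (3.40 ± 0.49) rose too. The AP-1 motif TGANTCA, to which Fos and Jun proteins bind, was in 0 of the 11 promoters searched for these 15 genes. It was in 7.82% of the promoters of genes called higher, in 6.76% of those called lower and in 5.64% of those tested. Of 14 genes of ER stress and the ATF4 pathway 3 rose (2 without S6 to S8, 1 without S2, S7 and S8 and 5 in DESeq2), with Trib3 at 0.97 ± 0.17, and Atf4 (0.12) and Ddit3 (0.42) were not called. Cebpb had 6.40 to 11.6 normalized reads in OIR S6 to S8, 147.8 to 612.2 in S1 to S5 and 65.8 to 108.8 in nOIR mice. It was at -0.23 without a call when all mice were used and at 1.55 ± 0.27 without S6 to S8 (adjusted p = 0.000822).

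Genes of other tissues varied between mice. Of the 17 lens genes 0 were called in limma, with 2 higher at an unadjusted p under 0.05, 0 called by edgeR and 2 by DESeq2, and their median was 1.72. Cryaa ran from 23.8 to 4432 normalized reads in nOIR mice and from 74.7 to 12404 in OIR mice. Without OIR S2, S7 and S8 the lens median was 0.30 with 1 of the 17 lower, and 1646 genes were higher and 1164 lower. With log2 Cryaa as a covariate 1750 were higher and 1177 lower. Of the 10 genes of the retinal pigment epithelium 0 were called in limma, edgeR or DESeq2 and 0 had an unadjusted p under 0.05, with Rpe65 at -0.17. All 5 tested erythroid genes rose, with Hbb-bs from 86.5 to 671.2 normalized reads in nOIR mice to 714.0 to 10593 in OIR mice. The animals had been perfused with phosphate-buffered saline. The globin genes share sequence, and their individual values are uncertain. Of 7 oligodendrocyte genes, whose cells make myelin, Olig1 (2.50) and Cnp (0.81) rose, and the list median was 0.81, or 0.35 with 2 called higher when S2, S7 and S8 were left out. This median was 2.73 in edgeR and 0.21 with a replicate block, and 4 of the 7 genes had a mean under 10 in nOIR mice. Mbp had 1046 to 1169 in nOIR mice and, in OIR mice, 784.0 to 1328 apart from OIR S7 with 10040, and was not called. Of 5 fibroblast genes Fbln1 (0.87) and Serpinf1 (0.98) rose, and Fbln1 was not called without S6 to S8 (0.69, adjusted p = 0.186).

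The OIR p14 mice come from the phase of hypoxia before RNV. To see where p17 differs from p14, the effect of OIR at each age was fitted in 1 model over 26 mice. It leaves out nOIR p14 mouse S4, which the study excluded for its lens signal. Lens signal remained in the fit, since nOIR p14 S5 had 6771 normalized reads of Cryaa against 6142 in S4. The effect at p17 was lower than that at p14 for 45 of all genes tested (0.237%) and higher for 438 (2.31%). Among the 1318 genes called lower at p17, 27 fell more than at p14 and 3 fell less, against 261 and 13 at an unadjusted p under 0.05. The count of 27 was 11 with a replicate block, 12 without OIR p17 S6 to S8 and 16 without nOIR p17 S4. Since the 1318 genes were chosen by their fall at p17, larger falls there are in part built in. At p14 in the same fit 468 of them (35.5%) were also called lower and 1 was called higher, and at p14 the median of the 1318 genes was -0.32, beside -0.53 at the later age. At p14 4.58% of all tested genes were called lower and 4.68% higher. Of the 1925 genes called higher at p17 387 rose more than at p14 and 0 less (9 at an unadjusted p under 0.05), and here too the choice by the p17 change builds part of this in.

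For several of the largest falls no difference from p14 was called, which does not show that the effects were equal. Gabra4 was at -1.65 at p14 and -1.68 at p17 (difference -0.02 ± 0.19), Cck at -2.19 and -2.05, and P2rx2 at -2.14 and -2.77 (difference -0.63 ± 0.40, adjusted p = 0.543). Gsg1l2 fell more at p17, with -0.54 at p14 and a difference of -0.66 ± 0.14 (adjusted p = 0.0049), and so did Tmem196 (difference -0.78), Cacna2d3 (-0.52), the bipolar cell gene Cabp5 (-0.51), Gabrr3 (-0.71) and Slc5a7 (-0.66). Of these, Gabrr3 (0.01) and Slc5a7 (0.25) were above 0 at p14. The fall of Slc5a7 at p17 was not called without S6 to S8 (adjusted p = 0.114). Etnppl showed the widest gap among the named falls. Its means were 33.8 ± 15.3 (SD, n = 6) normalized reads in nOIR and 32.0 ± 17.3 (SD, n = 6) in OIR mice at p14, and 229.4 ± 61.2 (SD, n = 6) and 33.8 ± 29.0 (SD, n = 8) at p17, with nOIR p17 the highest of the 4 means. The effect at p17 was higher than at p14 for 18 of 24 endothelial and 10 of 15 pericyte genes, against 2.31% over all genes. In the other vessel lists this held for 9 of 16 tip cell, 6 of 12 smooth muscle and 10 of 24 collagen and basement membrane genes. It held for 4 of 13 genes of the VEGF and angiopoietin axis and 3 of 16 of the blood-retina barrier. Tie1 was at -0.46 at p14 and 1.62 at p17 (difference 2.07 ± 0.20), and Pdgfrb at -0.32 and 1.32 (difference 1.64 ± 0.25). Among 20 gliosis genes the effect was higher at p17 for 2. Gfap was at 3.23 and 3.68 (difference 0.45 ± 0.44).

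**Figure D5:**
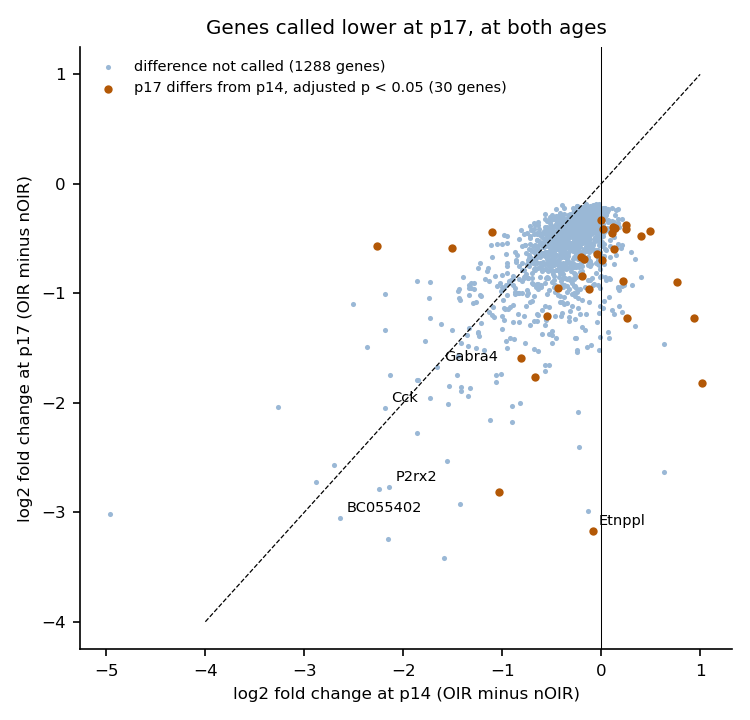
Each point is 1 of the 1318 genes called lower at p17, with its log2 fold change at p14 on the horizontal and at p17 on the vertical axis, and the dashed line marks equal effects. In orange are 30 genes whose effects differ, 27 of which fell more at p17 and 3 less.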

How the data were processed

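RNA of whole mouse retina was sequenced with a kit that does not mark strand, so overlapping and antisense genes cannot be told apart. The submitters' processing notes name FastQC 0.73, STAR 2.7.8a, featureCounts 2.0.1, R 4.0.3 and DESeq2 1.34, and the annotation was Gencode M28. The deposited signal values are normalized reads, which the authors made by dividing each mouse's counts by a DESeq2 size factor. Whole reads could be recovered for 100.0% of values within 0.001. Further deposited columns of the authors hold group means, log2 fold changes and adjusted p-values of their own comparisons and were not used.

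Here log2(normalized reads + 1) was compared with limma 3.58.1 (trend, two-sided, R 4.3.3) and Benjamini-Hochberg adjustment over the 18967 genes with a mean of at least 10, with 8 OIR and 6 nOIR mice. The difference between ages was an interaction contrast. The code was tested on simulated data. Named are the called genes with the smallest adjusted p in each direction (for falls, without overlap) and among moderate changes, the lower genes with the highest mean, and members of 41 gene lists. Members and lists were chosen with earlier results of these data known. Alternatives were another pseudocount, filter, scaling and threshold, edgeR 4.0.16 and DESeq2 1.42.0 on recovered reads, covariates, a replicate block and leaving out mice. No 2 libraries of the same group agreed within sampling noise (lowest chi-square per degree of freedom 9.39). Alternatives leaving out S2, S7 and S8 or S6 to S8 were chosen after seeing the data. Values of some genes are not reported here.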

Additional observations from a re-analysis of the deposited data

Results flagged for a closer look

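In 38 groups of mice examined for a single value far from the rest, 3 were found, where chance gives about 1 in 20 groups. The summed oligodendrocyte genes of OIR p17 S7 stood at 19187 normalized reads. Kcnip2 stood at 809.2 in OIR p17 S3, the highest OIR value and still below every nOIR mouse. The recovered reads of OIR p17 S1, 17029536, were the fewest of its group.

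Of the named genes given here that fell at p17, 7 had an effect that differed from that at p14 by the interaction test. Among all genes called lower at p17, 27 fell more than at p14 by this test, 11 with a replicate block and 12 without S6 to S8. Calls of this test thus depend on the setting. For the 7 named genes the difference of p17 minus p14 on the log2 scale was -0.66 for Gsg1l2, -0.52 for Cacna2d3, -0.78 for Tmem196, -3.09 for Etnppl, -0.51 for Cabp5, -0.71 for Gabrr3 and -0.66 for Slc5a7.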

How the results depend on the processing

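Cebpb, at -0.23 without a call, was called at 1.55 without S6 to S8, and no called gene named or tracked changed direction. Of these 190 called genes, 156 were called under all 29 settings and 34 lost their call under at least 1, with 30 lost at an adjusted p under 0.01, 21 with no filter, 19 with all mice brought to the same total and 19 without nOIR p17 S6. The count of lower genes, 1318, was 869 with the same total and 643 at an adjusted p under 0.01, and that of moderately lower genes, 146, was 235 after quantile normalization and 74 at 0.01. The counts of genes called by edgeR were 1979 higher and 1126 lower, and by DESeq2 2195 and 1455. Leaving out each mouse in turn gave 1740 to 2071 higher and 955 to 1478 lower genes. The 27 genes that fell more at p17 than at p14 were 11 with a replicate block, 11 without OIR p17 S2, S7 and S8, 12 without S6 to S8, 7 at 0.01 and 16 to 38 with each p17 mouse left out (p14 mice were not left out in turn), with the lowest count without nOIR p17 S4, so this count depends on single mice. The cause of these shifts was not tested. Same-numbered mice did not deviate together (correlations from -0.088 to 0.1), so the numbers do not pair them. The replicate block, which uses these numbers, gave 1755 higher and 1208 lower genes. In that fit OIR S7 and S8 have no nOIR mouse of their number at p17 and add nothing to the group effect. In the fit over both ages this holds for S8. Centring on the median gave 52.9% of calls higher, against 59.4%. Total reads were fewest in OIR S1 (17029536).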
